A study of Mus musculus with 2 samples.

Results

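The miR-15 family in mouse heart was followed through its 6 genes, Mir15a, Mir16-1, Mir15b, Mir16-2, Mir195a and Mir497. They were taken by gene symbol from a table of read counts for 2202 annotated microRNA genes, by a rule that uses no measured value but was set with earlier results of these data known, and all 6 reached the minimum of 10 counts in each library, as did 306 genes in all. The samples were hearts of female B6CASTF1/J mice at an age of 2 months, an F1 cross of the C57BL/6J and CAST/EiJ strains. They form 1 group of 2 libraries with no treatment, no genetic change and no control, numbered as biological replicates 1 and 2. The labels name separate females but 1 donor label for both. P-values between the libraries thus ask only whether 2 libraries differ beyond counting error. They measure neither an effect nor the spread of a population.

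MicroRNAs guide Argonaute proteins to messenger RNAs, mostly by pairing of the seed, the bases next to the 5′ end. The miR-15 family is known for repressing cell cycle genes, among them cyclins and the checkpoint kinase Chek1, and the survival gene Bcl2. In mouse heart it is known as a brake on the division of heart muscle cells after birth, and miR-195 is the member best known for a rise at that time.

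The family's 6 genes form 3 clusters of 2 hairpins, all shown here on mm10 with the GENCODE M21 annotation. Mir15a (chromosome 14, 61632027 to 61632110, minus strand) and Mir16-1 (61631880 to 61631972) lie 54 bases apart within Dleu2, a long non-coding RNA gene whose human counterpart is deleted in many chronic lymphocytic leukaemias. No annotated Dleu2 exon covers the Mir15a hairpin, and an exon of 1 of the 15 Dleu2 transcripts overlaps Mir16-1. Mir15b (chromosome 3, 69009772 to 69009835, plus strand) and Mir16-2 (69009902 to 69009996) lie 66 bases apart in an intron of Smc4, which encodes a core subunit of condensin, the complex that compacts mitotic chromosomes. Mir497 (chromosome 11, 70234717 to 70234800, plus strand) and Mir195a (70235042 to 70235135) lie 241 bases apart, and no M21 gene on their strand spans them. Mir497 alone lies opposite another annotated microRNA gene, Mir497b, on the minus strand at 70234692 to 70234816.

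The 5p products, cut from the 5′ side of each hairpin, are shown because they define the family. All come from the RefSeq table for GRCm38.p6, and capitals mark the seed, bases 2 to 8.
miR-15a-5p: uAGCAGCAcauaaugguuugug
miR-15b-5p: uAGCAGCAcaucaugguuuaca
miR-16-5p, from Mir16-1 and Mir16-2 alike: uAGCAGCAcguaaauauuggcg
miR-195a-5p: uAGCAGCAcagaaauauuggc
miR-497a-5p: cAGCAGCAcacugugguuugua

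The 5 products carry the same seed, and all agree from base 2 through base 9. Over the first 21 bases, miR-15a-5p and miR-15b-5p share 18 bases, while miR-16-5p and miR-195a-5p share 19 and differ by G10A and U11G (positions counted from 1 at the 5′ end, miR-16-5p first). By that measure miR-497a-5p is closest to miR-15a-5p, with 17 shared bases, and farthest from miR-16-5p, with 11. The seed occurs in 11 of 1738 entries for mature products in the table, or 0.633%, and 5 of these come from genes outside the family. An entry is a product of a gene, so miR-16-5p is entered both for Mir16-1 and for Mir16-2. The 3p products of the 6 genes each have a seed of their own that no other product in the table shares.

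Mir16-1 and Mir16-2 stand apart in how they can be counted. Their hairpins are shown with the longest stretch they have in common in capitals, 23 bases that hold all of miR-16-5p.
Mir16-1: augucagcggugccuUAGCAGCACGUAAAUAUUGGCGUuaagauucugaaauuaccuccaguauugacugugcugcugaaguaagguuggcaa
Mir16-2: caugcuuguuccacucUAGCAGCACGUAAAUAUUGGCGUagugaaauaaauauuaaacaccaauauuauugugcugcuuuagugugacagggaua

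A read that lies within those capitals fits both genes. No source used here states how such reads were treated, but the tables list reads with several places on a line of their own, and in each count column these lines and the genes add up to the same total (8069273 reads in replicate 1), so they were taken as counted for no gene. Reads on that line made up 49.5% of replicate 1 and 42.7% of replicate 2 over all genes, and how many were miR-16-5p was not tested. At a read length of 22 bases 2 of the 72 possible windows of the Mir16-1 hairpin also occur in Mir16-2, and at 24 bases none of 70 do. The shared windows of 22 bases include the whole of miR-16-5p, and reads need not spread evenly over a hairpin. The share of windows is thus no guide to the share of reads. On this reading of the tables, the levels of Mir16-1 and Mir16-2 are uncertain and leave out reads that lie within that stretch, whereas the 3p products miR-16-1-3p and miR-16-2-3p occur in no hairpin elsewhere.
miR-16-1-3p: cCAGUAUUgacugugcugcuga
miR-16-2-3p: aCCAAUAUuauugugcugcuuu

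The other 4 genes do not share any window of 18 bases with a hairpin at another place among the 2202 of release M21. Their longest shared stretches were 16 bases (Mir195a with Mir195b), 13 (Mir15a), 12 (Mir15b) and 12 (Mir497). Matches elsewhere in the genome were not searched here. The tables count reads per gene, so the 5p and 3p products of a hairpin cannot be told apart.

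**Figure D1:**
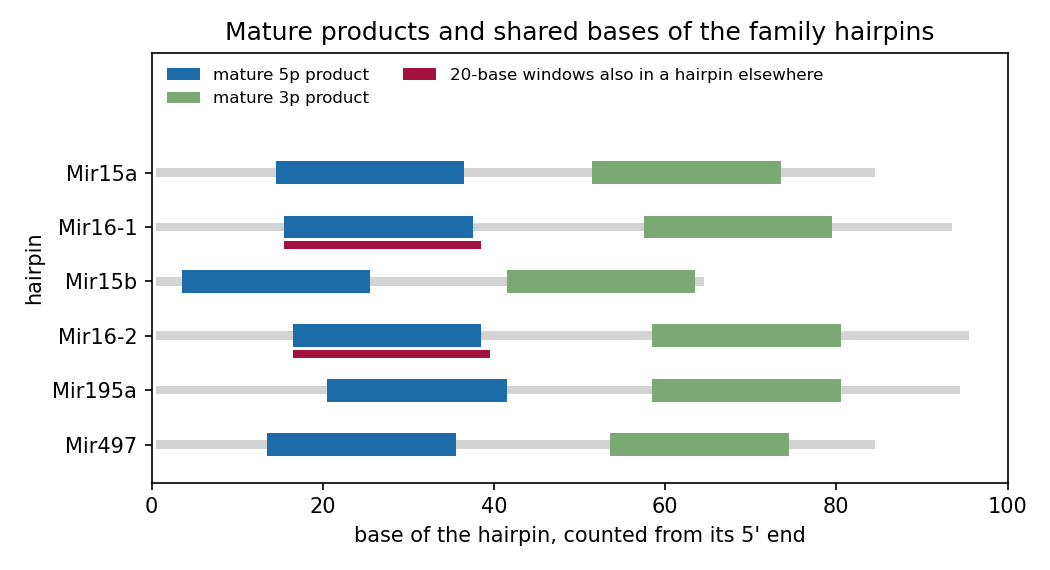
Each row is a hairpin, drawn to scale in bases from its 5′ end, with the mature 5p product in blue, the 3p product in green and bases covered by windows of 20 bases that also occur in a hairpin at another locus in red. Red is present at Mir16-1 and Mir16-2 alone, over all of the 5p product, and their 3p products are clear of it.

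Depth was similar in the libraries. Replicate 1 had 8069273 reads with 2424441 counted for a microRNA gene on its own strand, and replicate 2 had 7995058 reads with 2770301 so counted. Levels are given as CPM, own-strand counts scaled to that total, and 3 counts, the limit for a gene with 0 counts, were worth 1.24 CPM in the first library and 1.08 in the second. The heart muscle genes Mir208a, Mir208b and Mir499 were detected, and the 4 Mir1a and Mir133a genes, textbook muscle microRNAs, had 5 to 141 counts per library. The hairpins of these 4, and of the fibroblast genes Mir199a-1 and Mir199a-2, have windows of 20 bases in common with hairpins at other loci. Reads within such windows were taken as counted for no gene. Levels of these genes, and the shares of the heart muscle and fibroblast lists, are thus uncertain. The other genes of the cell type lists in this paragraph were not searched for such windows, so whether their levels share this limit was not tested. The 7 heart muscle genes made up 0.605% of replicate 1's counts and 0.858% of replicate 2's, with Mir208a at 1542 CPM in the first and 5865 in the second, while the other 3 detected genes of that list were higher in the first. Erythroid genes made up 1.16% of the counts of replicate 1 and 9.57% of those of replicate 2, fibroblast genes 1.13% and 0.259%, of which Mir21a alone stood at 10018 and 1810 CPM, endothelial genes 7.70% and 8.82%, nearly all from Mir126a, smooth muscle and pericyte genes 5.07% and 4.45%, and leukocyte genes 0.549% and 0.424%. The liver gene Mir122 held 0.00404% and 0.00173%. None of the 6 neuronal genes was detected and 4 had no count. These are numbered copies of Mir124a and Mir9, and reads that fit several copies were taken as counted for no gene. Their low counts thus do not show that neuronal microRNAs were absent. In bulk tissue, fewer cells of a type and less RNA per cell cannot be told apart.

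Together the 6 genes held 1.93% of microRNA counts in replicate 1 (46849 counts, 95% exact Clopper-Pearson interval 1.92 to 1.95) and 1.35% in replicate 2 (37311 counts, 1.33 to 1.36), a mean of 1.64% ± 0.414 (SD, n = 2). These shares, and the order of the genes below, hold for reads counted at 1 place, and miR-16-5p reads that fit both Mir16 genes are not in them. These intervals, and all others below, cover counting error only. The Smc4 cluster held 60.1% of the family's counts in replicate 1 and 59.2% in replicate 2. The Dleu2 cluster held 22.0% and 29.1%, and the cluster on chromosome 11 held 17.9% and 11.7%. The share of the Smc4 cluster differed little, while the Dleu2 cluster had the larger share in replicate 2 and the cluster on chromosome 11 in replicate 1.

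As counted, Mir15b had the highest level of the family in both libraries. It had 27452 counts (11323 CPM) in replicate 1 and 21593 counts (7794 CPM) in replicate 2, or 9559 ± 2495 CPM, rank 19 among all genes by mean level. It made up 58.6% and 57.9% of the family's counts. Mir15a, its closest relative by 5p sequence, in the Dleu2 cluster, had 7097 counts (2927 CPM) in replicate 1 and 5723 counts (2066 CPM) in replicate 2, or 2497 ± 609 CPM. Its share of the family was 15.1% in replicate 1 and 15.3% in replicate 2. Mir15a and Mir15b together held 73.7% and 73.2% of the family's counts.

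The miR-16 genes were lower and their 2 libraries differed in opposite directions. Mir16-1 had 3211 counts (1324 CPM) in replicate 1 and 5121 counts (1849 CPM) in replicate 2, or 1586 ± 371 CPM. Mir16-2 had 687 counts (283 CPM) in replicate 1 and 508 counts (183 CPM) in replicate 2, or 233 ± 70.7 CPM, the lowest level in the family. Mir16-1 was the higher of the pair in both libraries, and both levels leave out the reads that fit both genes.

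In the cluster on chromosome 11, Mir195a varied more between libraries, for its level, than any other member. It had 6391 counts (2636 CPM) in replicate 1 and 2513 counts (907 CPM) in replicate 2, or 1772 ± 1223 CPM. Mir497 had 2011 counts (829 CPM) in replicate 1 and 1853 counts (669 CPM) in replicate 2, or 749 ± 114 CPM. Mir195a was above Mir497 in both libraries, by a wide margin in replicate 1 and a narrow one in replicate 2.

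Ordered by mean level the genes ran Mir15b, Mir15a, Mir195a, Mir16-1, Mir497 and Mir16-2. Mir15b stayed apart from Mir15a, Mir16-1 from Mir497 and Mir497 from Mir16-2, with no overlap of the library values. Mir15a and Mir195a overlapped across libraries, and so did Mir195a and Mir16-1, which took places 3 and 4 in replicate 1 and places 4 and 3 in replicate 2. A small RNA read usually covers a whole mature product, so counts were not divided by length in this order. Per 100 bases of hairpin, Mir15b stood at 14936 ± 3899 CPM, Mir15a at 2972 ± 725, Mir195a at 1885 ± 1301, Mir16-1 at 1706 ± 398, Mir497 at 892 ± 135 and Mir16-2 at 246 ± 74.4, and the order within each library was the same as without length.

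**Figure D2:**
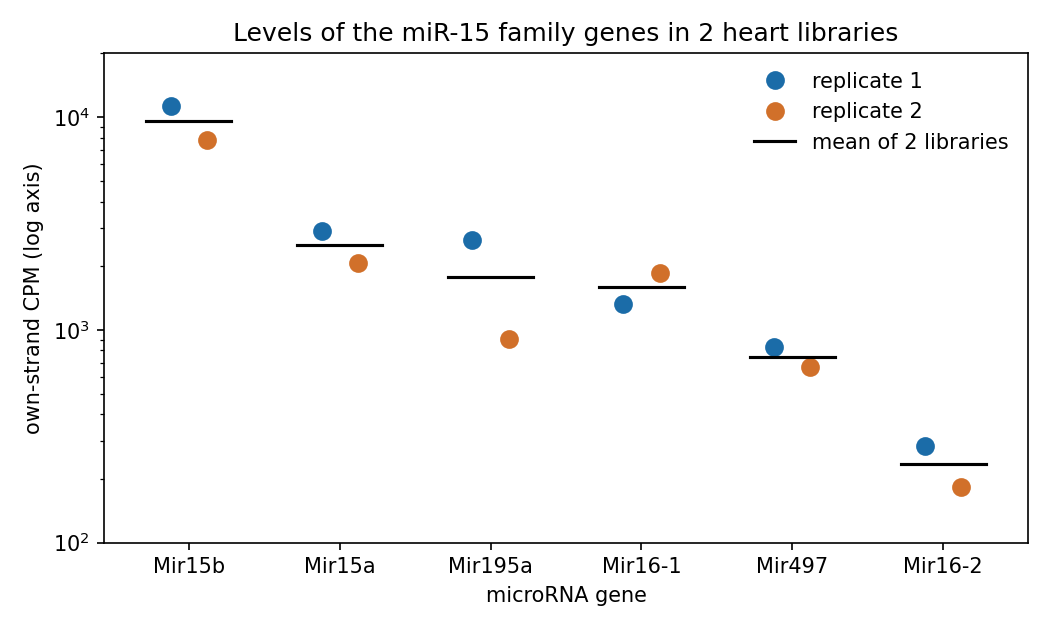
The y axis gives own-strand CPM on a log scale for each gene, with replicate 1 in blue, replicate 2 in orange and the mean as a bar. Mir15b lies highest in both libraries (11323 and 7794 CPM), Mir195a has the widest gap on the log scale (2636 and 907 CPM), and Mir16-1 alone is higher in replicate 2.

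All counts of the 6 genes lay on the gene's own strand, except 1 of 1854 counts at Mir497 in replicate 2. For the 11 other pairs of gene and library, with 0 opposite-strand counts, the limit of 3 counts allowed an opposite share of up to 0.0109% (Mir15b, replicate 1) to 0.591% (Mir16-2, replicate 2). Of the 6 genes, only Mir497 lost its counts when strand was ignored. In the deposited column that ignores strand, Mir497 had 0 counts in both libraries, since its reads then overlap Mir497b as well and belong to neither gene. Mir497b on its own strand had 0 counts in replicate 1 and 1 count in replicate 2, so the signal at this locus was almost wholly from the Mir497 strand. The counts of the other 5 genes were the same in both columns, but the total over genes is smaller there, which raised Mir15b to 12699 CPM, against 9559 on its own strand.

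Comparison of the libraries asked how far each gene's level held from 1 heart sample to the other. Each gene's counts were tested against the library totals (exact binomial, two-sided, Benjamini-Hochberg over 306 genes, threshold 0.05), and 6 of the 6 genes differed, against 61.1% of all detected genes. Of these, 5 were higher in replicate 1 (41.5% of all genes) and Mir16-1 was lower there (19.6% of all genes). Every member reached 500 counts in each library, and 87.5% of the 104 genes at that depth differed, so a call of this kind is near the background. By at least 1.5-fold as well, 2 of the 6 differed, against 36.6% of all genes and 34.6% of the 104. Both were higher in replicate 1, as were 25.5% of all genes by that rule.

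Mir195a showed the widest difference, 2.91-fold higher in replicate 1 (exact interval 2.77 to 3.04), a log2 ratio of 1.54, and 19 of the 306 genes had a ratio farther from 0. Mir16-2 was 1.55-fold higher (1.38 to 1.74; adjusted p = 2.44e-13, exact binomial test). Mir15b was 1.45-fold higher (1.43 to 1.48), Mir15a 1.42-fold (1.37 to 1.47; adjusted p = 2.22e-85, exact binomial) and Mir497 1.24-fold (1.16 to 1.32; adjusted p = 7.42e-11, exact binomial). Mir16-1 went the other way, with a ratio of replicate 1 over replicate 2 of 0.716 (0.685 to 0.749; adjusted p = 7.14e-50, exact binomial), so replicate 2 was 1.40-fold higher. Mir195a and Mir15b passed with smaller adjusted p-values than these 4 genes.

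The scale of the libraries moves these values. The median log2 ratio was 0.19 over all 306 genes and 0.52 over the 6 members. TMM factors moved the median of all genes to -0.03 and DESeq2 factors to 0, and the split of all called genes, 127 higher and 60 lower in replicate 1 by library totals, became 84 and 97 with TMM and 88 and 94 with DESeq2 factors. Every member kept its direction under these 3 scalings. With DESeq2 factors Mir195a was 2.55-fold higher in replicate 1, Mir16-2 1.35-fold, Mir15b 1.27-fold, Mir15a 1.24-fold and Mir497 1.09-fold, and Mir16-1 was 1.59-fold higher in replicate 2. At 1.5-fold Mir16-2 was thus called by library totals and Mir16-1 was not, and with either factor set the reverse held. The same reversal came with the strandless column and with Mir451a left out of the totals, where Mir16-1 was 1.55-fold and 1.52-fold higher in replicate 2 and Mir16-2 1.39-fold and 1.42-fold higher in replicate 1. Neither 1.5-fold call thus held across scalings, while Mir195a passed 1.5-fold under each of the 8 settings run. With TMM factors Mir497 did not pass the test (adjusted p = 0.0775, exact binomial test). The erythroid gene Mir451a was 11.1-fold higher in replicate 2. With it left out of the totals, Mir195a had a log2 ratio of 1.42 and Mir16-1 of -0.60. The part of blood or other cell types in these differences was not tested.

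**Figure D3:**
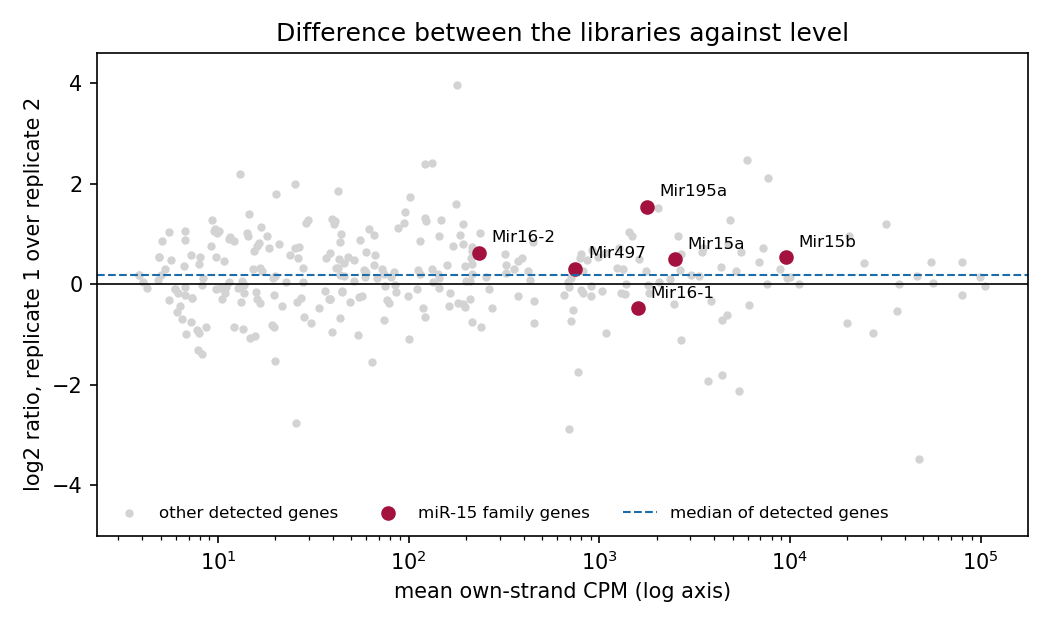
Each point is a detected microRNA gene, with mean own-strand CPM on a log x axis and the log2 ratio of replicate 1 over replicate 2 by library totals on the y axis. The 6 family genes are red, the dashed line is the median of all 306 genes at 0.19, and Mir195a (1.54) and Mir16-1 (-0.48) lie farthest above and below it among the 6.

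Hairpins of 1 cluster are cut from a shared primary transcript, and their count ratio needs no scaling between libraries. Mir15b exceeded Mir16-2 by a ratio of 40.0 in the first library (95% exact limits 37.0 to 43.2) and 42.5 in the second (38.9 to 46.5). This ratio did not differ by Fisher's exact test (two-sided adjusted p = 0.302 over 3 ratios), and the interval for replicate 1 over replicate 2 was 0.837 to 1.06 (log odds ratio with normal limits). Mir15a exceeded Mir16-1 by 2.21 in replicate 1 (2.12 to 2.31) and 1.12 in replicate 2 (1.08 to 1.16), a 1.98-fold difference (1.87 to 2.09; adjusted p = 1.32e-126, Fisher's exact test). Mir195a exceeded Mir497 by 3.18 in replicate 1 (3.02 to 3.34) and 1.36 in replicate 2 (1.28 to 1.44), a 2.34-fold difference (2.17 to 2.53; adjusted p = 7.42e-101, Fisher's exact test). As counted, the same hairpin led in both libraries in each of the 3 clusters. In 2 of them the size of that lead differed between libraries. Reads that fit both Mir16-1 and Mir16-2 were taken as counted for neither. The ratios over these genes thus do not give the level of miR-16-5p against its cluster mates.

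Paralogs from different clusters gave a mixed picture. Mir15b over Mir15a was 3.87 in replicate 1 (3.77 to 3.97) and 3.77 in replicate 2 (3.66 to 3.89), which did not differ (interval of the fold 0.986 to 1.07; adjusted p = 0.216, Fisher's exact test over 3 ratios). Mir16-2 over Mir16-1 was 0.214 in replicate 1 (0.197 to 0.232) and 0.0992 in replicate 2 (0.0904 to 0.109), a 2.16-fold difference (1.91 to 2.44; adjusted p = 8.41e-35, Fisher's exact test). The ratios between Mir15a, Mir15b and Mir16-2 thus differed little between libraries, and those with Mir16-1 or between Mir195a and Mir497 did not hold. The counts of Mir16-1 and Mir16-2 in these ratios leave out the reads that fit both genes.

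**Figure D4:**
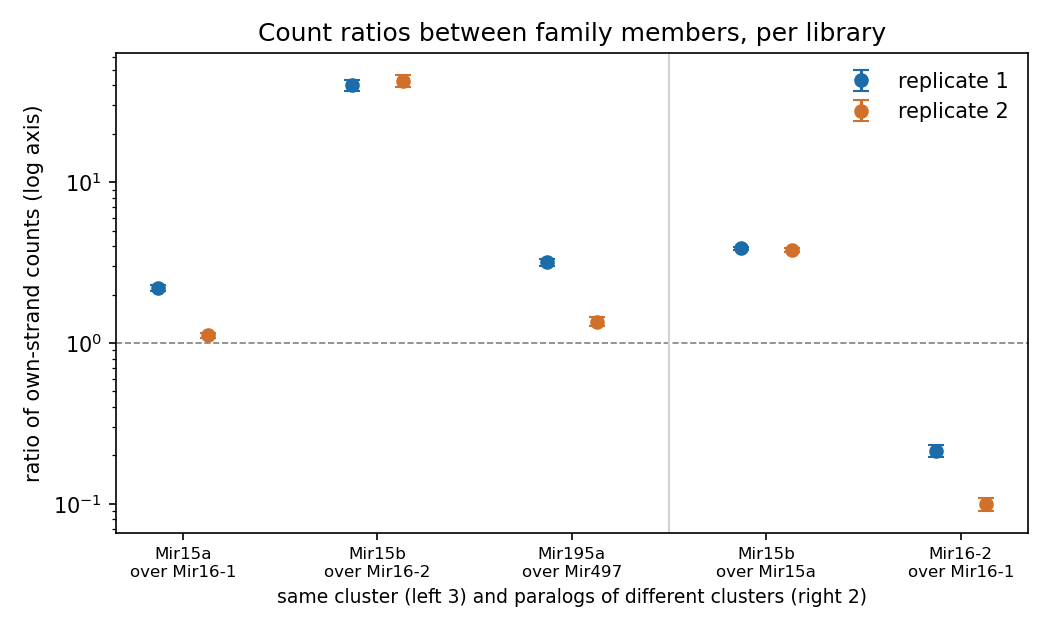
Points are ratios of own-strand counts on a log axis with 95% exact intervals, replicate 1 in blue and replicate 2 in orange, for the 3 clusters on the left and 2 pairs of paralogs on the right. The values for Mir15b over Mir16-2 (40.0 and 42.5) and Mir15b over Mir15a (3.87 and 3.77) lie side by side, and the other 3 differ between libraries.

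Outside the family, 5 genes have a product with the same seed. Mir322 of the X chromosome, counterpart of human miR-424, had 11721 counts (4835 CPM) in replicate 1 and 10605 counts (3828 CPM) in replicate 2, or 4331 ± 712 CPM, so it stood between Mir15b and Mir15a. Mir195b had 0 and 2 counts, and Mir6342, Mir6353 and Mir6419 had no count in either library. With Mir322 added, the genes of this seed made up 2.42% of the counts of replicate 1 and 1.73% of those of replicate 2. Among genes with related sequence beside Mir322, Mir107 stood at 649 ± 69.0 CPM, Mir503 at 65.7 ± 30.7 CPM and Mir103-2 at 9.20 ± 3.32 CPM, while Mir103-1 was not detected (6 and 3 counts). Mir322 (1.26-fold) and Mir503 (1.99-fold) were higher in replicate 1 and Mir107 lower (ratio 0.860), and Mir103-2 did not pass the test (28 and 19 counts, adjusted p = 0.122, exact binomial).

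Other microRNAs reported to limit the division of heart muscle cells were set beside the family. Of 9 such genes 6 were detected, and 4 of these were higher and 1 lower in replicate 1, beside 41.5% higher and 19.6% lower of all detected genes, with a median log2 ratio of 0.69 beside 0.19 over all genes. Mirlet7i, of the growth-restraining let-7 family, stood at 105694 ± 2237 CPM, Mir29a, whose family represses collagen genes, at 7596 ± 6.23 CPM, Mir34a, a p53 target, at 2343 ± 124 CPM and Mir128-1 at 176 ± 125 CPM. Of 14 annotated genes reported to promote that division 5 were detected, of which 3 were higher and 1 lower in replicate 1, beside the same 41.5% and 19.6% of all genes (median log2 ratio 0.27). With so few genes, neither count is read as a result about its list. They made up 0.943% of the counts of replicate 1 and 1.06% of those of replicate 2, led by Mir92-1 (4652 ± 1393 CPM), Mir17 (3324 ± 269 CPM) and Mir20a (1753 ± 232 CPM) of the miR-17-92 polycistron. As counted, Mir15b stood above each of these promoting genes. The hairpins of 6 of the 9 limiting genes (all Mir1a, Mir133a and Mir128 genes) and 6 of the 14 promoting genes (Mir92-1, Mir19b-1 and both Mir199a genes among them) have windows of 20 bases in common with hairpins at other loci, as do Mir107, Mir103-1 and Mir103-2, so their levels are uncertain like those of Mir16-1 and Mir16-2.

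With 2 libraries no likeness of pattern can be measured, so likeness was taken as the nearest mean level. Mir15b lay between Mir30d (9688 ± 583 CPM) and Mir30a (8822 ± 1316), and Mir15a between Mir28a (2589 ± 1165) and Mir328 (2469 ± 468). Mir195a lay between Mir744 (1798 ± 7.70) and Mir20a, and Mir16-1 between Mir150 (1616 ± 398) and Mir145a (1475 ± 674). Mir497 lay between Mir351 (771 ± 589) and Mir532 (724 ± 180), and Mir16-2 between Mir101b (236 ± 112) and Mir1306 (216 ± 21.1 CPM). Mir195a, with an SD of 1223 CPM, and Mir15b, with an SD of 2495 CPM, each had a wider spread than either neighbour.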

How the data were processed

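Small RNA of heart was sequenced in 2 libraries of 1 group. The deposited tables hold raw, unscaled counts for each gene, from reads placed on mm10 and counted against GENCODE M21 per the labels and the text deposited with the tables; for the aligner, the counter, the trimming and the rule for reads with several places nothing is given in the sources used here. Each table has 3 count columns, identified from their values as either, own and opposite strand. The first 4 lines name no gene and took 70.0% (replicate 1) and 65.3% (replicate 2) of all reads. They were left out of totals and tests.

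CPM are own-strand counts scaled to their own total. Genes with at least 10 counts in both libraries were tested by exact binomial probabilities from the totals, two-sided, with Benjamini-Hochberg adjustment over 306 genes. With 1 group there are no residual degrees of freedom, so no model with dispersion was fitted. Ratios between members were compared by Fisher's exact test. Hairpins and mature products came from GENCODE M21 and the RefSeq table, where all 6 genes had mature products and 5 had a hairpin entry. The text names the 6 members, genes that overlap them or share their seed, nearest neighbours in level, and listed genes. The members and lists were chosen with earlier results of these data known, and the background at 500 counts was added later. The binomial test was also run on simulated counts that varied by counting error only, so that run cannot cover spread beyond counting error. Alternatives were the strandless column, TMM and DESeq2 factors, other filters, equal depth, other denominators, hairpin length and each replicate alone. Python 3.11.15 (numpy 2.4.6, pandas 2.3.3, scipy 1.17.1, matplotlib 3.10.9) and R 4.3.3 (edgeR 4.0.16, DESeq2 1.42.0, for factors only) were used.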

Additional observations from a re-analysis of the deposited data

Results flagged for a closer look

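Reads that mapped to several places numbered 3992614 in replicate 1 and 3410568 in replicate 2. They drew attention because they were taken as counted for no gene and made up 49.5% of replicate 1 and 42.7% of replicate 2. The files do not say which of them come from miR-16-5p, the product that Mir16-1 and Mir16-2 share, and their part in the levels of these genes was not tested.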

How the results depend on the processing

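The family's share of counts was 1.64% by own-strand counts, 2.08% in the strandless column, which drops Mir497 and shrinks the total, and 0.524% of all reads, and ran from 1.35% to 1.93% with 1 library left out. Per hairpin base, the log2 ratio of Mir15b over Mir16-2 was 5.93 against 5.37, and that of Mir15b over Mir15a 2.33 against 1.93, by the construction of that alternative. With 1 library left out the log2 ratio ran from 0.16 to 1.14 for Mir15a over Mir16-1, from 0.44 to 1.67 for Mir195a over Mir497 and from -3.33 to -2.22 for Mir16-2 over Mir16-1, without a change of sign. With TMM factors Mir497 had a log2 ratio of 0.092 and no longer passed the test; the cause was not tested. The other tests of the 6 genes kept their direction and side of the 0.05 threshold. At 1.5-fold, Mir16-2 and Mir195a were called by library totals, and Mir16-1 and Mir195a with TMM or DESeq2 factors, in the strandless column and without Mir451a. The count of differing genes ran from 158 to 187, but the number of genes tested changed as well. It was 158 of 213 with at least 50 counts in both libraries and 158 of 282 in the strandless column. By library totals it was 187 of 306, and with no filter on counts 183 of 682. In the strandless column Mir497 had no counts, so its ratio and test gave no value there. No test between libraries is possible with 1 library left out. No paired analysis was possible because the labels give a single group. Depth limits Mir16-2 most, with 687 and 508 counts.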
